A study of Homo sapiens with 6 samples.

Results

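The genes described here are 10 members of the Wnt pathway in MCF10A cells, a widely used, non-tumour line derived from human breast epithelium. They are the secreted inhibitors DKK1 and SFRP1, the ligands WNT3A, WNT7B, WNT9A and WNT10A, the receptors FZD1 and FZD4, the intracellular inhibitor NKD1 and the DNA-binding effector LEF1. They were found by exact symbol among the 26822 distinct symbols of the deposited RNA-seq table, and each had 1 row. Cells were transfected with 30 nM of a non-targeting siRNA (siNT) or of siRNAs targeting PAX9 (siPAX9) for 72 hours, with 3 samples in each group, and poly(A)+ RNA was sequenced. Both groups were otherwise grown alike, in medium with horse serum, epidermal growth factor, hydrocortisone, cholera toxin and insulin. The comparison asks which mRNA levels differ after depletion of PAX9, a paired-box transcription factor of craniofacial and tooth development.

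The deposited table holds 1 FPKM per group for each row, which the authors made from the 3 samples. FPKM counts sequenced fragments after division by transcript length and by library size, so levels can be set side by side between genes. Without a value per sample there is no error between replicates, and no difference in this text could be tested. The methods of the study give a range of total reads per library, but the table holds no counts, so the reads behind a single FPKM are not given. The 10 genes were moreover chosen from this same comparison, so their changes are given as a description and support nothing further. The deposited table marks 10 of the 10 rows as holding enough reads to be compared.

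Wnt proteins are secreted, lipid-modified ligands that bind frizzled receptors together with a co-receptor. In the canonical branch this stops the destruction of β-catenin, which then enters the nucleus and acts with LEF1 and the TCF proteins on target genes. Secreted inhibitors act outside the cell. DKK1 binds the co-receptors LRP5 and LRP6, while SFRP1 resembles the ligand-binding part of a frizzled receptor and binds Wnt ligands. Several inhibitors, such as NKD1 and AXIN2, are themselves targets of the pathway. In the breast, Wnt signals take part in the growth and the stem cells of the mammary gland, and loss of SFRP1 is common in breast tumours.

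A few facts of the series bear on all values. The targeted gene, PAX9, was at 2.80 FPKM in siNT against 0.325 in siPAX9, and its row also spans SLC25A21. The change used throughout is log2 of the siPAX9 FPKM over the siNT FPKM, and its median over the 13264 symbols with a mean FPKM of at least 1 was -0.07. All 8 epithelial markers, among them the basal genes KRT5, KRT14, KRT17 and TP63 and the luminal or general epithelial genes KRT18, EPCAM and CDH1, had FPKM between 16.7 and 2088 in both groups, though CDH1 (45.3 and 124) and EPCAM (34.3 and 16.7) differed at least 2-fold. The hormone receptor genes ESR1 and PGR were at or below 0.317, while the luminal factors FOXA1 (1.10 and 2.86) and GATA3 (6.19 and 7.56) were above 1. The summed FPKM of 5 fibroblast markers was 6.38 in siNT and 42.1 in siPAX9, nearly all of it from DCN (5.85 and 37.9) and COL1A1 (0.454 and 4.13), while COL1A2, PDGFRA and PDGFRB were at or below 0.0781. Of the leukocyte markers, CD14 had 14.4 in siNT and 56.5 in siPAX9, PTPRC was at or below 0.0922, and CD3E was listed at 0 in both groups. Of 3 endothelial markers, PECAM1 had 2.58 in siNT and 0.495 in siPAX9, KDR had 0.798 and 1.94, and CDH5 was at or below 0.00938. The part of these genes in the changes below was not tested.

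Of the 10 genes, 5 were higher and 5 were lower in siPAX9. The higher genes were DKK1, WNT10A, WNT7B, WNT9A and NKD1, and the lower genes were WNT3A, FZD4, FZD1, LEF1 and SFRP1. A mean FPKM of at least 1 over the groups was reached by 6 genes, of which 3 were at least 2-fold higher and 3 at least 2-fold lower. Over all 13264 symbols at that level, 6.82% were at least 2-fold higher and 6.9% at least 2-fold lower. These shares stand beside counts that the choice of the genes fixed, and nothing can be read from them. WNT9A and WNT10A were below 1 in siNT and reached the mean only through siPAX9, where they were high. LEF1, NKD1, WNT3A and WNT7B were below a mean FPKM of 1. Among the 3041 symbols with a mean FPKM from 0.1 to 1 and values above 0 in both groups, 30.2% were at least 2-fold higher and 11% at least 2-fold lower, so differences of that size were common at low levels. Over all 5317 such symbols below a mean of 1 the shares were 32% and 12.1%. They were 9.66% and 7.98% from 1 to 10, where WNT10A, WNT9A, FZD1 and FZD4 lie, 3.32% and 4.67% from 10 to 100, where DKK1 lies, and 4.93% and 11.1% over 100, where SFRP1 lies. With 1 added to both FPKM, 4.8% of the 13264 symbols were at least 2-fold higher and 4.93% lower. At a fold of 1.5 the shares were 13.7% and 16.7%, and at a fold of 4 they were 2.74% and 1.56%.

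**Figure D1:**
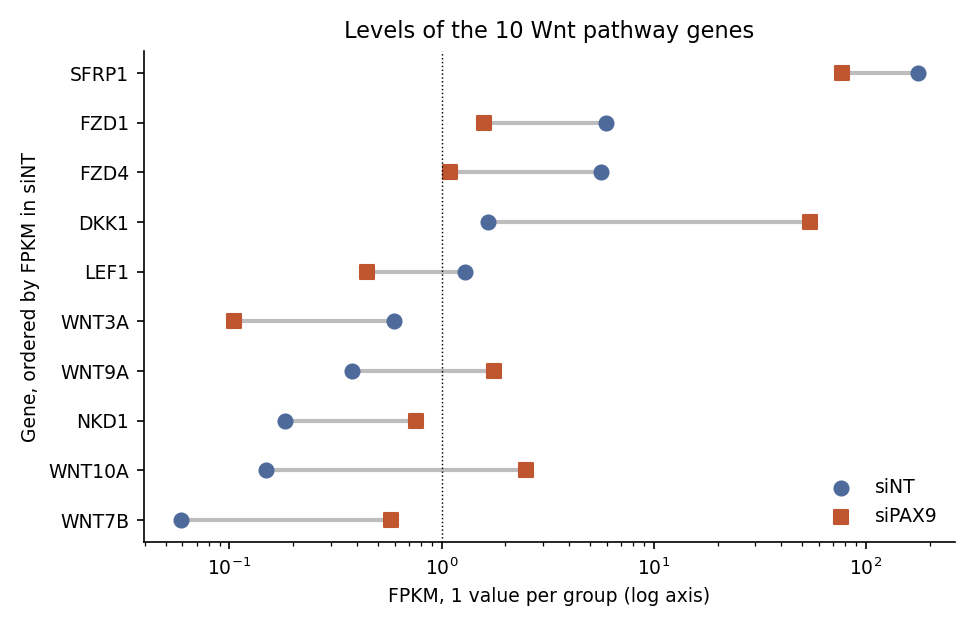
FPKM of the 10 Wnt pathway genes on a log axis, with 1 value per group made by the authors from 3 samples (circle, siNT; square, siPAX9; no error bars because there is no value per sample). SFRP1 had the highest FPKM in both groups, and DKK1 moved from the fourth highest in siNT to the second highest in siPAX9; the dotted line marks an FPKM of 1.

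Both secreted inhibitors were expressed, and they differed in opposite directions. DKK1 (chromosome 10, 54074041 to 54077417, plus strand) stood at 1.65 FPKM in siNT against 54.7 in siPAX9, a level 33.1-fold higher. With 1 added to both FPKM the level was 21.0-fold higher, because the siNT level is close to the constant added. Among the 6298 symbols with a mean FPKM from 10 to 100, its change was the 12th highest. DKK1 reached that range only through siPAX9, where it was high, and was chosen from this comparison, so nothing is read from the rank. SFRP1 (chromosome 8, 41119476 to 41166990, minus strand) stood at 175.8 FPKM in siNT against 76.9 in siPAX9, a level 2.29-fold lower. It remained the most abundant of the 10 mRNAs in both groups. Its change, -1.19, was the nearest to 2-fold among the 10 genes. Among the 710 symbols with a mean FPKM over 100, it was the 50th lowest. SFRP1 reached that range only through siNT, where it was high, so nothing is read from this rank either. In a bulk sample, fewer cells that make an mRNA and less of it in each cell cannot be told apart.

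The ratio of the DKK1 and SFRP1 mRNA levels was therefore different in the groups, and the proteins were not measured here. The FPKM of DKK1 was 0.939% of that of SFRP1 in siNT and 71.2% in siPAX9. Their summed FPKM was 177 in siNT and 132 in siPAX9, because the difference in SFRP1 was larger in absolute terms. No other secreted or surface inhibitor with a mean FPKM of at least 1 differed at least 2-fold. DKK1 and SFRP1 were chosen from this same comparison, so nothing is read from that contrast. Of the 18 genes of this list, 6 had a mean FPKM of at least 1, and apart from DKK1 and SFRP1 these were KREMEN1 (5.23 and 3.70), a receptor for DKK proteins, KREMEN2 (1.35 and 0.732), and the ubiquitin ligases RNF43 (2.89 and 2.75) and ZNRF3 (3.77 and 3.30), which remove frizzled receptors from the surface. DKK3, SFRP2, WIF1 and SOST were listed at 0 in both groups. DKK2, DKK4, SFRP4 and SFRP5, of the same families as the pair, did not exceed 0.172 in either group. APCDD1, a membrane inhibitor, had 0.173 in siNT and 1.71 in siPAX9, just under the mean of 1.

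The sequence upstream of DKK1 is shown because its change was the largest of the 10. RefSeq promoter windows were given for 7 of the 10 genes, namely DKK1, LEF1, WNT3A, WNT9A, WNT10A, FZD1 and FZD4, and the 250 bases before the RefSeq start were used. The windows come from build GRCh38.p14, and each matched GRCh37, which has the coordinates of the deposited hg19 rows, at 1 place near its gene. In the window of DKK1 on the plus strand of GRCh37, at chr10:54073791-54074040, capitals mark 3 short motifs, which are CTTTGAA, then the similar CTTTGTT, and nearest to the start TATAAA:
DKK1: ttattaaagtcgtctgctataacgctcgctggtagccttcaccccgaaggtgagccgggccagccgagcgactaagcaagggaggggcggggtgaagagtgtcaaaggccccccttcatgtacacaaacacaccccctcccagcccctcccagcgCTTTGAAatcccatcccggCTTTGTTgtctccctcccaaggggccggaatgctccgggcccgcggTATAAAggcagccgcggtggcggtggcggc

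TATAAA, the core of a TATA box, lay from base -30 to -25 before the start of DKK1, and 10.7% of all 35114 windows held it on either strand. CTTTGAA and CTTTGTT are variants of the sequence that LEF1 and TCF proteins bind, and they lay from -95 to -89 and from -76 to -70. They were held by 3.80% and 4.50% of all windows, and they were added to the search after this sequence had been seen. CTTTGAT, another form of that sequence, and GCGTGAC, a core shared by several known PAX binding sites, were in none of the 7 windows, against 2.26% and 2.20% of all windows. None of the 5 motifs was found in the other 6 windows, none overlapped another in DKK1, and a match of letters is not evidence of binding.

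**Figure D2:**
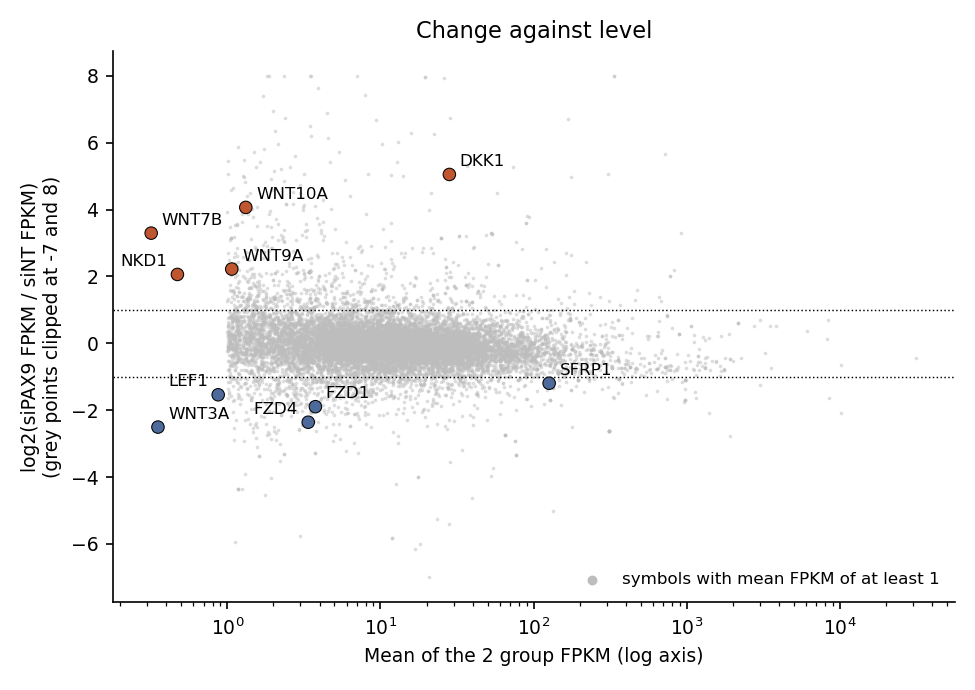
Change, as log2 of siPAX9 over siNT FPKM, against the mean of the 2 group FPKM on a log axis, with the 10 genes in colour over the symbols with a mean FPKM of at least 1 in grey. DKK1 stands at 5.05 and SFRP1 at -1.19, and WNT7B, NKD1, WNT3A and LEF1 lie left of a mean of 1; the dotted lines mark a 2-fold difference.

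The ligands were low throughout, and their order differed between the groups. WNT10A (chromosome 2, 219745255 to 219758651), known for its role in teeth and hair, was at 0.149 FPKM in siNT against 2.49 in siPAX9, a change of 4.06. WNT9A (chromosome 1, 228107787 to 228135676), which acts in joint formation, had 0.377 in siNT and 1.76 in siPAX9, a change of 2.22. WNT7B (chromosome 22, 46316248 to 46373008), a ligand of epithelia, had 0.0588 in siNT and 0.577 in siPAX9, a change of 3.30. WNT3A (chromosome 1, 228194723 to 228248972), the ligand most used to switch on the canonical branch in culture, had 0.599 in siNT and 0.105 in siPAX9, a change of -2.51. WNT3A was the only one of the 4 that was lower in siPAX9. Where 1 was added to both FPKM, WNT10A had a change of 1.60 and WNT9A of 1.00, while WNT7B had 0.57 and WNT3A -0.53.

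The 19 human WNT genes together had a summed FPKM of 5.60 in siNT and 11.6 in siPAX9. The 4 ligands above contributed 1.18 in siNT and 4.93 in siPAX9, and the other ligands 4.41 and 6.62. WNT10A made up 2.66% of the ligand sum in siNT, where it was the 10th highest ligand, and 21.6% in siPAX9, where it was the highest. WNT10B, its closest relative and the highest ligand in siNT, had 1.20 in siNT and 0.621 in siPAX9 and was the 7th highest there. WNT3A moved from the 4th to the 12th place. In siPAX9 it stood at 0.1054 beside 0.1051 for WNT16. The rows of WNT16, WNT7A and WNT6 are marked as holding too few reads to be compared, so the order of low ligands cannot be settled. The 4 ligands with a mean FPKM of at least 1 were WNT10A, WNT9A, WNT2B (0.523 and 1.82) and WNT5A (0.770 and 1.45). Each was below 1 in siNT and reached that mean only through siPAX9, so its direction was fixed by the minimum level, and WNT10B fell just short of the same mean. WNT1, WNT2, WNT8A and WNT9B were listed at 0 in both groups. WLS, which carries Wnt proteins to the cell surface, was at 35.4 FPKM in siNT against 16.1 in siPAX9, a level 2.20-fold lower. PORCN, which attaches their lipid, had 4.17 and 4.22.

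**Figure D3:**
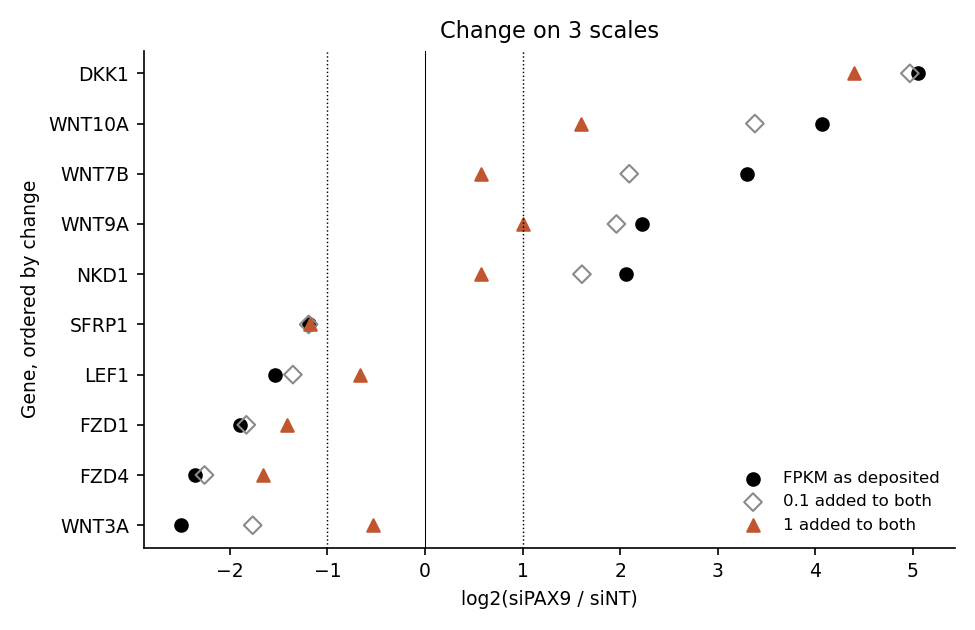
Change of the 10 genes as log2 of siPAX9 over siNT, from the FPKM as deposited (circles), with 0.1 added to both (diamonds) and with 1 added to both (triangles). With 1 added, WNT7B, NKD1, LEF1 and WNT3A lie inside the dotted 2-fold lines and the other 6 genes lie on or outside them.

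WNT9A and WNT3A are neighbours on chromosome 1, and they differed in opposite directions. Their rows are 59.0 kb apart and the genes are read away from each other, WNT9A on the minus strand and WNT3A on the plus strand. The FPKM of WNT3A was 159% of that of WNT9A in siNT and 6.00% in siPAX9. The windows before their starts are shown to compare this pair, on the minus strand of GRCh37 at chr1:228135634-228135883 for WNT9A and on the plus strand at chr1:228194449-228194698 for WNT3A, with no capitals because none of the motifs was found:
WNT9A: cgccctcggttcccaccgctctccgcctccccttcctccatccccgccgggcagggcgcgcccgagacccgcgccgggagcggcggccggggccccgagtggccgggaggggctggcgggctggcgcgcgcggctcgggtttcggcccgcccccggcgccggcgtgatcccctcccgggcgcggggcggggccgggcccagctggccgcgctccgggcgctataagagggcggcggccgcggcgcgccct
WNT3A: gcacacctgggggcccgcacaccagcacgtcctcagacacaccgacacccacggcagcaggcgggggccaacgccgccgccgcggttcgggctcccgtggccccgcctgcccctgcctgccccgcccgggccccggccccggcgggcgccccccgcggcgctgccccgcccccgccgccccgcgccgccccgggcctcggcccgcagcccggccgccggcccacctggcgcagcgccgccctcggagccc

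Both are very rich in G and C, with 84.4% for WNT9A and 86.0% for WNT3A, against a median of 58.0% over all windows. They held 44 and 38 CG dinucleotides, while DKK1 had 62.8% G and C with 18 CG dinucleotides. LEF1 had the lowest share of G and C of the 7 windows, 47.6%, but its window, unlike the other 6, lies inside the limits of its gene in the GENCODE annotation rather than next to them. The windows of higher genes (DKK1, WNT9A, WNT10A) and lower genes (LEF1, WNT3A, FZD1, FZD4) overlapped in this share.

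Both frizzled receptors of the group were lower in siPAX9. FZD1 (chromosome 7, 90893783 to 90898132) was at 5.92 FPKM in siNT against 1.59 in siPAX9, a level 3.72-fold lower. FZD4 (chromosome 11, 86502101 to 86666440), which also serves as the receptor of norrin, had 5.65 in siNT and 1.10 in siPAX9, a level 5.13-fold lower. With 1 added to both FPKM the changes were -1.42 and -1.66. The row of FZD4 is wider than the gene, which spans 86656721 to 86666437 on the minus strand in the GENCODE annotation, since PRSS23 on the plus strand overlaps it and shares the interval. PRSS23 had 0.343 in siNT and 0.231 in siPAX9. Whether the counting used strand is not stated in the sources used here, and without strand the reads of overlapping genes cannot be told apart.

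The 5 other frizzled receptors with a mean FPKM of at least 1 differed less. FZD6, a receptor linked to planar polarity, was the highest in both groups, with 53.2 in siNT and 43.0 in siPAX9, which was 65.1% and 63.1% of the frizzled sum. FZD8, the second highest, had 6.39 and 7.75. FZD2 had 3.59 and 6.02, FZD5 had 2.19 and 3.29, and FZD3 had 3.86 and 4.17. FZD1 and FZD4 together made up 14.2% of the frizzled sum in siNT and 3.95% in siPAX9, and the sum was 81.7 and 68.2. In siNT they were the 3rd and 4th highest frizzled receptors, and in siPAX9 the 6th and 7th. Of the 7 frizzled receptors with a mean FPKM of at least 1, FZD1 and FZD4 were the only ones that differed at least 2-fold. Over all symbols with that mean, 6.82% were at least 2-fold higher and 6.9% at least 2-fold lower. FZD1 and FZD4 were chosen from this same comparison, which fixed their contrast with the other receptors, so nothing is read from it.

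Among the co-receptors, LRP5 had 23.4 in siNT and 13.0 in siPAX9, and LRP6 had 6.95 and 6.40. These are the proteins that DKK1 binds, and both were under a 2-fold difference. ROR1, a co-receptor of the branches that do not use β-catenin, had 1.37 in siNT and 3.93 in siPAX9, a level 2.87-fold higher. RYK (34.1 and 23.3) and PTK7 (24.8 and 24.0) were the most abundant. LGR4, a receptor of the R-spondins, had 13.3 and 14.9, and RSPO1 and LGR6 were listed at 0 in both groups.

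The members that act inside the cell were low, and they also differed in opposite directions. NKD1 (chromosome 16, 50582241 to 50674771), which binds dishevelled and dampens the signal, was at 0.183 FPKM in siNT against 0.761 in siPAX9, a change of 2.06. LEF1 (chromosome 4, 108968701 to 109097586) had 1.30 in siNT and 0.446 in siPAX9, a change of -1.54. With 1 added to both FPKM these were 0.57 and -0.67. LEF1-AS1 shares the interval of LEF1 on the opposite strand and had 0.0229 in siNT and effectively 0 in siPAX9. The abundant intracellular genes of the pathway differed less. DVL1, DVL2 and DVL3, the dishevelled genes, had changes of -0.18, -0.29 and 0.28. All 10 genes of the β-catenin destruction complex with a mean FPKM of at least 1 were under a 2-fold difference, from CTNNB1, which encodes β-catenin itself (82.9 and 58.2), to APC (6.06 and 8.26). TCF7L2, the most abundant DNA-binding partner of β-catenin, had 8.94 and 8.53, so the level of LEF1 was well below it in both groups. PYGO1, a nuclear cofactor, had 3.06 in siNT and 0.897 in siPAX9, and was the only nuclear effector with a mean FPKM of at least 1 that differed at least 2-fold.

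Genes often used to read out the canonical branch did not share a direction. AXIN2, the most widely used, had 0.0940 in siNT and 0.0930 in siPAX9, a level at which little can be read. Of the 13 target genes listed, 5 had a mean FPKM of at least 1, with DKK1 at least 2-fold higher and none at least 2-fold lower. Over all symbols with that mean the shares were 6.82% and 6.9%. DKK1, NKD1 and LEF1 were chosen from this comparison, so nothing is read from this count or from their directions. MYC had 394 in siNT and 248 in siPAX9, CCND1, which encodes cyclin D1, had 28.1 and 51.1, and RNF43 and ZNRF3 are given above. NKD1 and LEF1, both on this list, differed in opposite directions. TCF7 (0.193 and 0.251), SP5 (0.112 and 0.0689) and LGR5 (0.00720 and 0.0646) were low in both groups, and these rows and that of AXIN2 are marked as holding too few reads to be compared.

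**Figure D4:**
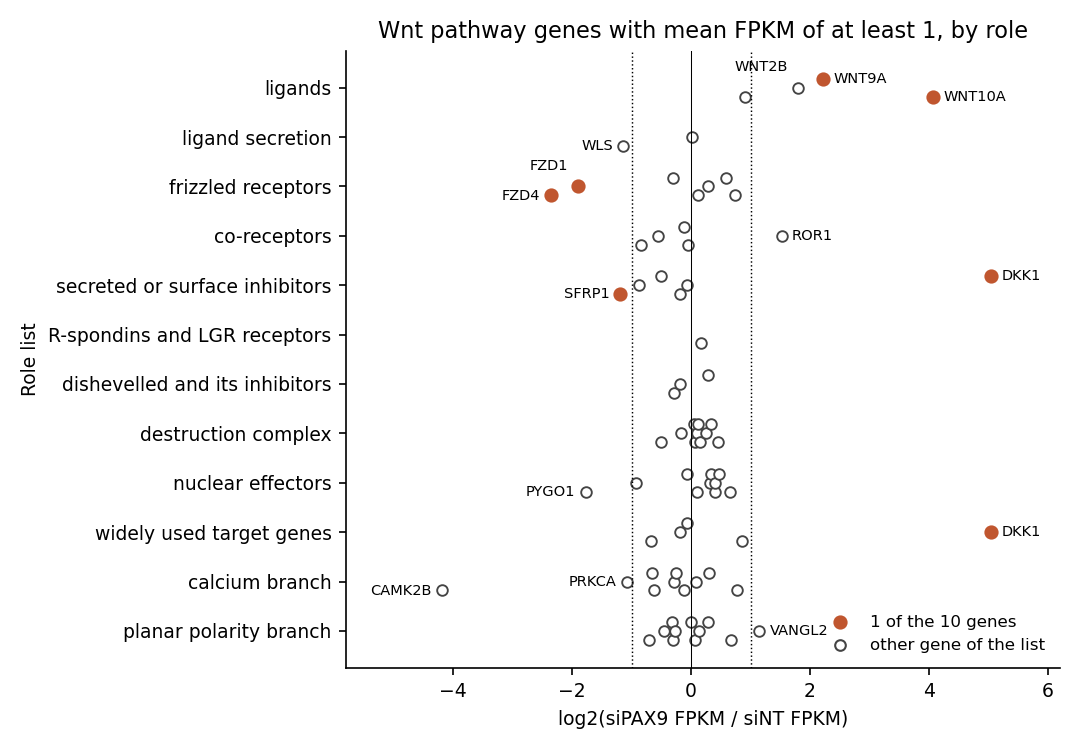
Change, as log2 of siPAX9 over siNT FPKM, for the Wnt pathway genes with a mean FPKM of at least 1, in rows by role (filled, 1 of the 10 genes; open, other genes; a gene on 2 lists is drawn in both rows). Outside the 10 genes, WNT2B, ROR1 and VANGL2 lie beyond 2-fold higher and WLS, PYGO1, CAMK2B and PRKCA beyond 2-fold lower.

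The wider pathway list held 128 genes, and 71 of them had a mean FPKM of at least 1. Of these 71 genes, 6 were at least 2-fold higher, 7 were at least 2-fold lower and 58 were under 2-fold, with a median change of 0.06 against -0.07 over all 13264 symbols. Without the 10 genes, 3 of the other 65 genes (4.62%) were at least 2-fold higher and 4 (6.15%) at least 2-fold lower, beside the 6.82% and 6.9% of all symbols. Since the 10 genes were chosen from this comparison, leaving them out lowers these shares by construction, and nothing is read from them. Of the 7 genes outside the 10 that differed at least 2-fold, WNT2B and VANGL2 were below 1 in siNT, and PYGO1 was below 1 in siPAX9.

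The genomic neighbours of the 10 genes were compared from the coordinates of the deposited rows. The nearest named neighbour downstream of DKK1 with a mean FPKM of at least 1 was the long noncoding RNA LINC01468, 133 kb away, with 1.79 in siNT and 21.5 in siPAX9, a change of 3.59. The row on the other side, CSTF2T, ended 0.153 kb from that of DKK1 and had 8.97 and 8.37. A deposited row can be wider than its gene, as for FZD4. The limits of the neighbouring genes were not checked, so this need not be the distance of the CSTF2T gene. WNT6, which lies 6.30 kb from WNT10A, had 0.0346 in siNT and 0.257 in siPAX9, and the deposited table marks its row as holding too few reads to be compared. NOD2, the neighbour of NKD1 at 56.3 kb, had 0.358 and 1.89 and reached the mean of 1 only through siPAX9, and HADH, at 12.4 kb from LEF1, had 35.1 and 17.2. The other nearest neighbours, leaving out the 10 genes themselves, were under 2-fold, except PRR34-AS1 beside WNT7B (1.16 and 2.43). Those under 2-fold include GOLGA7 beside SFRP1, ARF1 beside WNT3A, ATXN10 beside WNT7B and CDK14 beside FZD1. Within 500 kb of the 10 genes, 65 other named rows had a mean FPKM of at least 1. Of these, 7 (10.8%) were at least 2-fold higher and 6 (9.23%) at least 2-fold lower, beside the 6.82% and 6.9% of all symbols. The first shares count rows and the second count symbols, and with so few rows nothing is read from the difference.

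**Figure D5:**
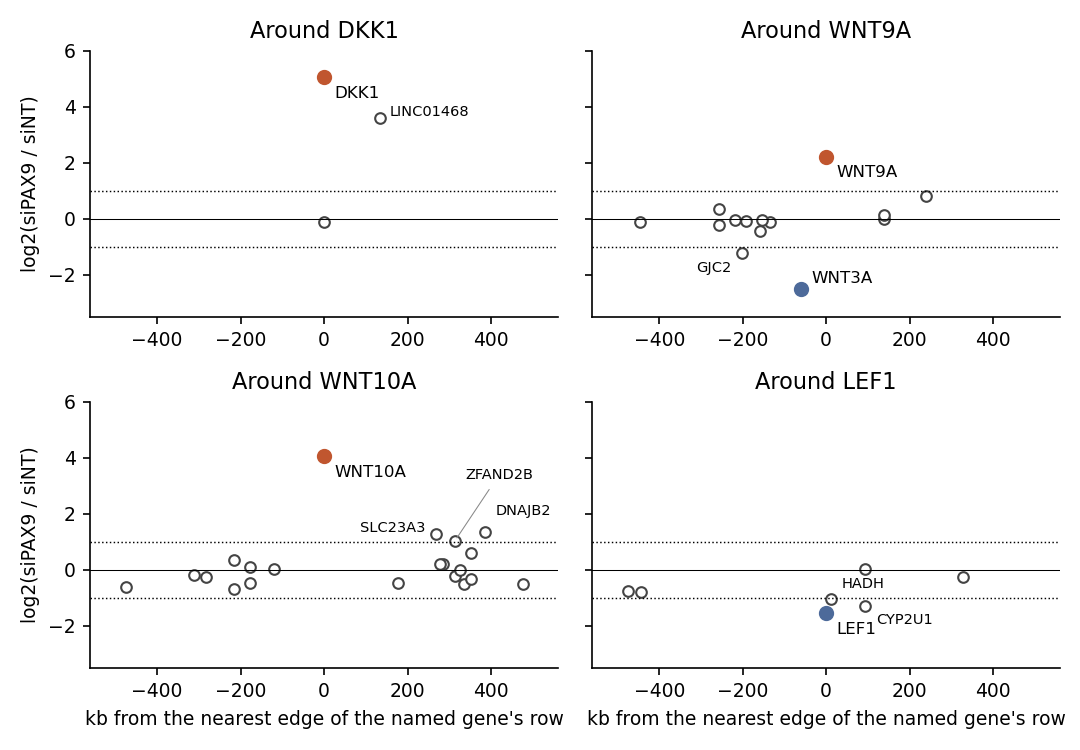
Change of the named rows with a mean FPKM of at least 1 around DKK1, WNT9A, WNT10A and LEF1, against the distance in kb from the edge of that gene's row in its direction of reading (filled, the named gene and WNT3A; open, neighbours; a row that touches or spans the edge is drawn at about 0). LINC01468 stands near DKK1 at 3.59, and WNT3A at -2.51 lies 59.0 kb from WNT9A at 2.22.

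The genes nearest to DKK1 in both group levels were AZGP1 (1.82 in siNT and 72.1 in siPAX9), CRABP2 (1.80 and 40.9) and C1orf116 (2.43 and 38.8), at distances of 0.42, 0.44 and 0.74 on the log2 scale. Those nearest to SFRP1 were ANP32B (182 and 77.2), H2AFZ (177 and 73.1) and EIF2S3 (184 and 80.3), at distances of 0.05, 0.07 and 0.09. The distance was taken over 2 values per gene among 11675 rows with a single symbol, so a small distance says only that both levels were close. In siNT the order of the 10 genes from the highest FPKM was SFRP1, FZD1, FZD4, DKK1, LEF1, WNT3A, WNT9A, NKD1, WNT10A and WNT7B. In siPAX9 it was SFRP1, DKK1, WNT10A, WNT9A, FZD1, FZD4, NKD1, WNT7B, LEF1 and WNT3A. Without a spread over samples, the order of genes with close levels, such as FZD1 and FZD4 in siNT, cannot be settled.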

How the data were processed

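RNA was taken from 3 siNT and 3 siPAX9 samples of MCF10A cells. The authors aligned single-end reads of poly(A)+ libraries to UCSC hg19 with Bowtie 2, quantified them with Cufflinks inside Partek Flow, and deposited 1 FPKM per group and row. How libraries were scaled against each other is not given in the sources used here. The columns of the authors' own comparison (log2 fold change, test statistic, p-value, q-value and significance) were not used. The status column served in 1 alternative.

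Rows were split at commas, and the row with the highest mean FPKM was kept per symbol. The change was log2(siPAX9 FPKM/siNT FPKM), also with 1 added to both, because low FPKM give unstable ratios. Symbols with a mean FPKM of at least 1 and a difference of at least 2-fold were counted; a symbol above that mean but at 0 in 1 group counts as past 2-fold. With 1 value per group no error, interval or test was possible. The study's methods state the range of total reads per library, but not the mapped reads or the reads per row, so no counting precision was computed.

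The 10 genes and the gene lists were chosen with earlier results of these data known. Genes named are the 10, PAX9, markers, list genes past 2-fold, the 2 most abundant of a role, nearest neighbours and the 3 rows nearest in level. WNT6 and genes below the mean of 1 were named after their values were seen, and further genes of each role were added for context. Positions are as in the deposited rows (1-based). Strand and gene limits are from GENCODE release 44 on GRCh37, and promoter sequences from RefSeq. The counting was tested on simulated data. The level of 1 marker gene is not reported here. Python 3.11.15, numpy 2.4.6, pandas 2.3.3 and matplotlib 3.10.9 were used.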

Additional observations from a re-analysis of the deposited data

How the results depend on the processing

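No paired analysis was possible because the deposited table holds 1 value per group, and for the same reason no replicate could be left out. None of the 10 genes changed direction under any of the 9 alternatives run on their changes, and 79 of 90 values stayed on the same side of 2-fold and within 1.5-fold of the value given above, although a minimum level or the row status leaves a gene's own change as it is by construction. With 1 added to both FPKM the changes were 4.39 for DKK1, 1.60 for WNT10A, 1.00 for WNT9A, 0.57 for NKD1, 0.57 for WNT7B, -0.53 for WNT3A, -0.67 for LEF1 and -1.66 for FZD4, so 6 of 10 genes were at least 2-fold. With 0.1 added they were 3.38 for WNT10A, 2.09 for WNT7B and -1.77 for WNT3A. Added constants draw low values together by construction.

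The counts moved with the minimum level and the fold. With a mean FPKM of at least 0.1, 5 of the 10 genes were higher and 5 lower. Of 93 pathway genes, 12 were higher and 11 lower, and of 16387 symbols 1890 were higher and 1263 lower. With no minimum but values above 0 in both groups, 5 of the 10 genes were higher and 5 lower. The counts were then 18 and 14 of 106 pathway genes, and 2537 and 1504 of 18462 symbols. With a mean of at least 5, reached by 2 of the 10 genes, 1 was higher and 1 lower. For pathway genes the counts were 1 and 3 of 47, and for symbols 427 and 565 of 9830. At a fold of 1.5, 12 of 71 pathway genes were higher and 14 lower, and 1812 and 2221 of 13264 symbols. At a fold of 4, 3 of the 10 genes were higher and 1 was lower, among the 6 with a mean of at least 1. Of 71 pathway genes 3 were higher and 2 lower, and of 13264 symbols 363 and 207. The choice of the 10 genes fixed their counts, and nothing is read from these. Added constants, centring, rows with a single symbol, summed rows and rows marked as having enough reads moved no count by over 1.5 times. The number of reads behind values below an FPKM of 1 is not given in the table.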

Other observations

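The branches of Wnt signalling that do not use β-catenin held the lowest change among the pathway genes with a mean FPKM of at least 1. CAMK2B, a subunit of calcium/calmodulin-dependent kinase II, was at 23.9 FPKM in siNT against 1.30 in siPAX9, a level 18.3-fold lower, and its change with 1 added to both FPKM was -3.43. The other subunits differed less, with 12.7 and 8.19 for CAMK2D and 7.98 and 13.6 for CAMK2G, while CAMK2A did not exceed 0.00884. PRKCA, a protein kinase C, had 4.29 and 2.03, a change of -1.08. Of the 17 calcium branch genes, 10 had a mean FPKM of at least 1, of which 2 were at least 2-fold lower and none at least 2-fold higher. Over all symbols at that level 6.9% were lower and 6.82% higher by that fold, and with so few genes nothing particular to this branch can be read from the counts. NFATC4, a calcium-regulated transcription factor, had 0.165 and 0.767, below that mean.

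Of the 11 planar polarity genes, which orient cells in an epithelial sheet, all had a mean FPKM of at least 1 and only VANGL2 differed at least 2-fold, with 0.851 in siNT and 1.88 in siPAX9, so that it reached that mean only through siPAX9. With 1 added to both FPKM its change was 0.64. RHOA (216.7 and 179) and RAC1 (125.5 and 101), small GTPases of this branch, were the most abundant. CELSR3, whose row also carries MIR4793, had 91.4 and 56.1. These values come from 1 FPKM per group and were not tested.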
